A study of Mus musculus with 16 samples.

Results

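Ccdc177, Parp16, Tmem121b and Map10 are 4 of the 17222 genes that passed the filter on low counts, out of 55385 genes in the deposited table. They were chosen from these data for their decrease after bicuculline, an antagonist of GABA-A receptors that disinhibits neuronal networks and drives bursts of synaptic activity. All 4 passed the filter. The choice is not stated to rest on only some of the 16 libraries, so the bicuculline response of the 4 genes is given below as a description without a test, in both kinds of culture. The test concerns the mean difference between knockdown and control cultures. In this balanced design that contrast is uncorrelated with both responses only if baseline and bicuculline libraries spread equally. For Parp16 the standard error of the log2 knockdown difference was 0.16 in baseline and 0.22 with bicuculline. The test, most of all that of Parp16, is thus not wholly free of the choice.

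The RNA came from primary hippocampal cultures of newborn C57Bl/6N mice, harvested at day 10 in vitro after infection with recombinant adeno-associated virus. Each virus carried a short hairpin RNA under the U6 promoter and GFP under the chicken beta-actin promoter, neither of which is restricted to a cell type. Where it describes the injections into mice, the paper states that the virus serotype was picked for its tropism for neurons. Control-shRNA and Dnmt3a1-shRNA2, which targets the long isoform of the DNA methyltransferase Dnmt3a, were each combined with no treatment (baseline) or 4 h of 50 µM bicuculline. This gave 4 groups of 4 libraries, 16 in all. The libraries of a group are described as separate neuronal preparations. All groups, the controls included, carry a virus and a hairpin, and the knockdown rests on a single hairpin. Estimated counts summed to between 28912697 and 29586355 per library, and mitochondrial transcripts took 2.73% to 6.60%. Dnmt3a was at 293 to 338 CPM (counts scaled to a common library size by the TMM method) in the 8 Control-shRNA libraries and at 39.4 to 48.0 CPM in the 8 knockdown libraries, a gene-level value that does not separate its isoforms. Fos, an immediate early gene, was at 7.54 to 19.2 CPM in baseline and at 726 to 1276 CPM with bicuculline, and all 16 immediate early genes listed rose in both kinds of culture. The neuronal markers Rbfox3, Tubb3, Snap25, Syt1 and Stmn2 summed to between 4786 and 6050 CPM in every library.

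The 4 genes have little in common by function. Parp16 encodes a mono-ADP-ribosyltransferase anchored in the membrane of the endoplasmic reticulum (ER). It modifies the ER stress sensors PERK and IRE1, which slow protein synthesis and raise chaperones when unfolded protein accumulates. Map10 encodes a microtubule-associated protein known from dividing cells, where it binds the spindle and the midbody. Tmem121b, formerly Cecr6, encodes a multipass membrane protein, and Ccdc177 a coiled-coil protein, and the function of both is poorly known. In neurons, sustained synaptic activity is known to induce immediate early and late response genes and, less well studied, to lower the transcripts of many others within hours.

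In the mouse genome (GRCm38, GENCODE M21 gene models) the genes lie on 4 chromosomes. Ccdc177 (ENSMUSG00000062961.7) is on the minus strand at chr12:80754043-80760687, Parp16 (ENSMUSG00000032392.11) on the plus strand at chr9:65195353-65239224, Tmem121b (ENSMUSG00000094626.1) on the minus strand at chr6:120488939-120493807, and Map10 (ENSMUSG00000050930.5) on the plus strand at chr8:125669818-125673359. Tmem121b and Map10 have a single exon, and Ccdc177 has 2 exons with its coding sequence in 1 of them. Parp16 has up to 7 exons and 5 annotated transcripts, of which 3 are protein-coding. A coding sequence in a single exon thus occurs in 3 of the 4 genes, against 1002 of 14475 tested protein-coding genes (6.92%). Among those 1002 genes, 21.1% were called lower and 17.9% higher with bicuculline in the Dnmt3a1-shRNA2 cultures, against 13.8% and 11.6% of genes with several coding exons.

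The sequence just upstream of the start is shown for the 3 genes with an entry in the RefSeq promoter sequences used (build GRCm38.p6). The 4 genes were chosen for their decrease, so their joint fall gives no reason to expect a shared motif. Each runs 5′ to 3′ on the strand of the gene, and capitals mark every match to the motifs searched, apart from the degenerate E-box CANNTG. A stretch holds the 250 bases before the RefSeq start, cut short before any annotated start of the gene that lies inside them. The Parp16 stretch was cut short in this way to 212 bases, and the others have 250 bases. That of Parp16 lies in the first intron of the GENCODE transcript that starts farthest upstream.
Parp16, chr9:65214440-65214651, plus strand: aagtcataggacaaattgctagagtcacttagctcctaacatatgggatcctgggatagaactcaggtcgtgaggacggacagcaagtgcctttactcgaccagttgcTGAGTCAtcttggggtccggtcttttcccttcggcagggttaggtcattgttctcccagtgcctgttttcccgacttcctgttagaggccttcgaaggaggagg
Tmem121b, chr6:120493947-120494196, minus strand: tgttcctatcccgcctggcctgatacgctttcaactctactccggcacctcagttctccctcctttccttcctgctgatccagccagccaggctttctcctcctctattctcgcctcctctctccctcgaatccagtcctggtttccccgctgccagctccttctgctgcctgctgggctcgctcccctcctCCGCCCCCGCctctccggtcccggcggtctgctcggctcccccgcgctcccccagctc
Map10, chr8:125669568-125669817, plus strand: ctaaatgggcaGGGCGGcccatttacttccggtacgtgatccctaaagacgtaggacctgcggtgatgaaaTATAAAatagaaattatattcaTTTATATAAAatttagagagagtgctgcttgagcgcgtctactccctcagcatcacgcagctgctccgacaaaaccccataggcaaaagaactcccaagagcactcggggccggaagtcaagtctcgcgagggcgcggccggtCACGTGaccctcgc
The searched motifs were, on both strands, the cAMP response element TGACGTCA and its core TGACG, the AP-1 motif TGANTCA, the E-boxes CANNTG and CACGTG, the SP1 motif GGGCGG, the EGR motifs GCGGGGGCG and GCGTGGGCG, and the CCAAT and TATAAA boxes. CANNTG includes CACGTG, and TGACGTCA includes TGACG. Parp16 held 1 AP-1 motif, found in 6.87% of 27025 promoter windows of 250 bases. Tmem121b held 1 EGR motif (3.05% of windows) that overlaps its 1 SP1 motif (32.9%). Map10 held 1 SP1 motif, 1 CACGTG (6.05%) and 3 TATAAA motifs, 2 of them overlapping (13.0%). CANNTG, present in 66.0% of windows, occurred 3 times in Parp16 and 2 times in Map10. None of the 3 stretches held TGACG (17.9% of windows) or CCAAT (34.5%). These are letter matches, and a missing match says only that these letters are not in the stretch. Tmem121b had the highest share of G and C of the 3 stretches, 65.2% against a median of 52.0% over all windows. Parp16 had 51.4% and Map10 51.6%. The stretches held 7 (Parp16, in 212 bases), 15 (Tmem121b) and 18 (Map10) CpG dinucleotides, against a median of 6 over all windows of 250 bases. Windows of the tested genes alone were not summarised, so no value is shown to be unusual among them.

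**Figure D1:**
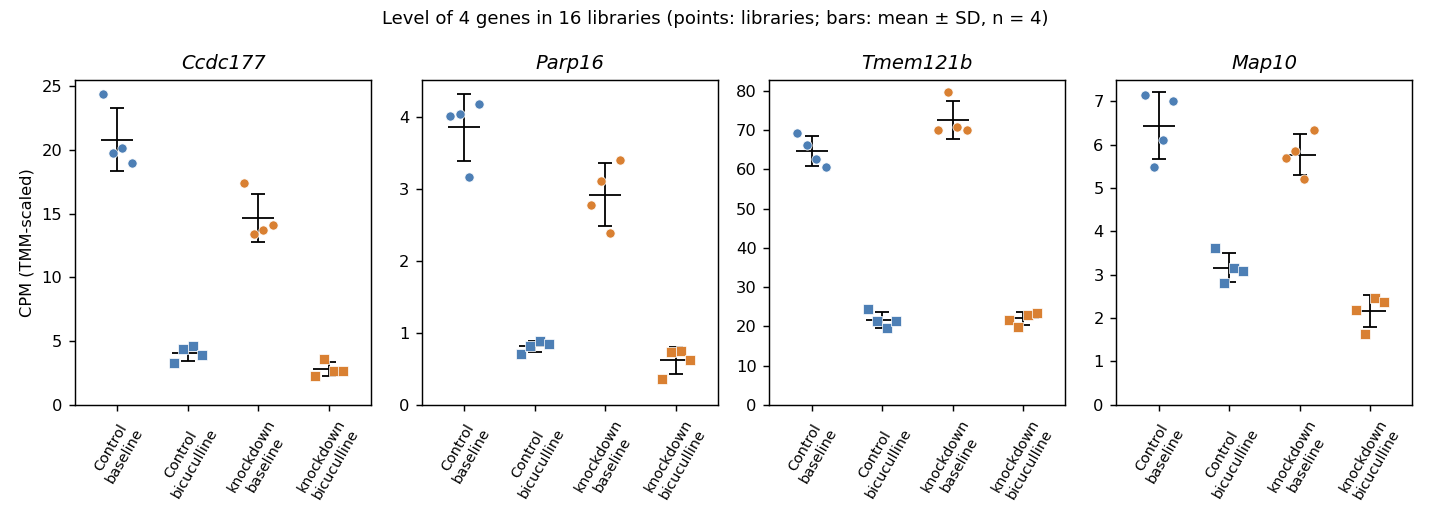
CPM of the 4 genes (vertical axes, from 0) in the 4 groups (horizontal axes). Points are the 4 libraries of a group, circles for baseline and squares for bicuculline, blue for Control-shRNA and orange for Dnmt3a1-shRNA2; bars give the mean ± SD. In each panel every bicuculline library lies below every baseline library, as for 21.4% of all tested genes in Control-shRNA and 22.1% in Dnmt3a1-shRNA2. Ccdc177 in baseline lies at 13.4 to 17.4 CPM (orange) and 19.0 to 24.4 CPM (blue).

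Ccdc177 was the member with the deepest decrease. In the Control-shRNA baseline libraries it was at 24.4, 19.7, 20.1 and 19.0 CPM, and with bicuculline at 3.31, 4.37, 4.60 and 3.89 CPM. The lowest baseline library was thus 4.12 times the highest bicuculline library, and 19.4% of the mean level remained. In the Dnmt3a1-shRNA2 cultures it was at 17.4, 13.4, 13.7 and 14.1 CPM in baseline and at 2.30, 3.59, 2.67 and 2.66 CPM with bicuculline. The 2 conditions again did not overlap, and 19.1% remained. The log2 fold change, from the quasi-likelihood fit in edgeR, was −2.36 in Control-shRNA (standard error, SE, 0.13) and −2.38 in Dnmt3a1-shRNA2 (SE 0.14). Ccdc177 overlaps an antisense gene, Gm26796, which holds 19.0% of its stretches of 31 bases, so the reads of the 2 genes could not be fully separated. Gm26796 itself was estimated at no more than 9.51 counts in any library, and the log2 ratio of bicuculline to baseline for the sum of both genes was −2.32 in Control-shRNA and −2.35 in Dnmt3a1-shRNA2.

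Parp16 showed a nearly equal fractional loss. It was at 4.02, 4.04, 3.16 and 4.18 CPM in the Control-shRNA baseline libraries and at 0.707, 0.817, 0.892 and 0.842 CPM with bicuculline. In the Dnmt3a1-shRNA2 cultures the baseline libraries were at 2.78, 3.11, 2.38 and 3.40 CPM and the bicuculline libraries at 0.356, 0.740, 0.748 and 0.628 CPM. The conditions did not overlap in either kind of culture, and 21.1% and 21.2% of the mean baseline level remained. The log2 fold change was −2.23 in Control-shRNA (SE 0.19) and −2.22 in Dnmt3a1-shRNA2 (SE 0.20). The bicuculline values rest on few reads, 19 to 26 counts per library in Control-shRNA and 9 to 21 in Dnmt3a1-shRNA2, and the coefficient of variation in the latter group was 29.6%.

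Tmem121b lost a smaller fraction than Ccdc177 and Parp16. It was at 69.3, 66.3, 62.6 and 60.7 CPM in the Control-shRNA baseline libraries and at 24.5, 21.4, 19.5 and 21.3 CPM with bicuculline. In the Dnmt3a1-shRNA2 cultures it was at 69.9, 79.8, 70.8 and 70.1 CPM in baseline and at 21.7, 19.8, 23.0 and 23.5 CPM with bicuculline. About the same low level was reached in both kinds of culture, 21.7 ± 2.08 and 22.0 ± 1.66 CPM (SD, n = 4), which is 33.5% and 30.3% of baseline. The log2 fold change was −1.58 in Control-shRNA (SE 0.08) and −1.72 in Dnmt3a1-shRNA2 (SE 0.08). With 535 to 2442 counts per library, it had the smallest standard errors of the 4.

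Map10 had the smallest decrease of the 4 genes in both kinds of culture. It was at 7.14, 5.49, 6.11 and 7.0 CPM in the Control-shRNA baseline libraries and at 3.61, 2.80, 3.16 and 3.09 CPM with bicuculline, so that 49.2% remained. With Dnmt3a1-shRNA2 it was at 5.69, 5.85, 5.21 and 6.33 CPM in baseline and at 2.18, 1.63, 2.46 and 2.36 CPM with bicuculline, so that 37.4% remained. The conditions did not overlap in either kind of culture. The log2 fold change was −1.02 in Control-shRNA (SE 0.13) and −1.42 in Dnmt3a1-shRNA2 (SE 0.14).

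All 4 genes had every bicuculline library below every baseline library in both kinds of culture, as had 21.4% of all tested genes in Control-shRNA and 22.1% in Dnmt3a1-shRNA2. Elsewhere in the table a gene is called changed at a Benjamini-Hochberg adjusted p under 0.05 and a change over 0.5 on the log2 scale. By that rule 11.1% of all tested genes were called lower and 10.8% higher with bicuculline in Control-shRNA, and 13.2% lower and 12.6% higher in Dnmt3a1-shRNA2. Since the 4 genes were chosen for this decrease, nothing is read from their place among these shares. With scaling by library size only, lower calls made up 67.2% of all calls in Dnmt3a1-shRNA2, against 51.1% with TMM. In bulk RNA, less RNA per cell and fewer cells of a type that expresses a gene cannot be told apart.

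**Figure D2:**
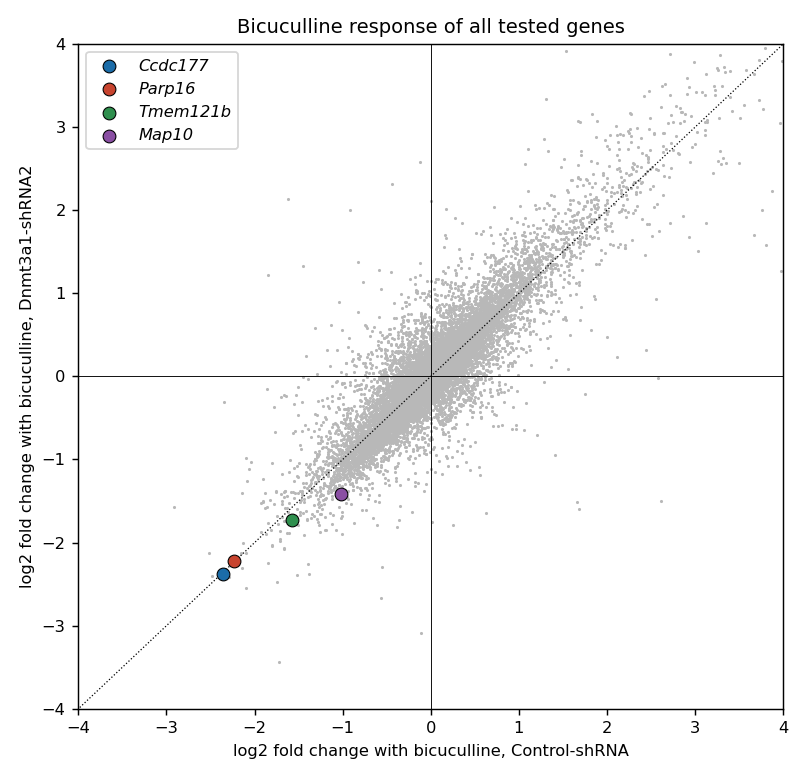
Log2 fold change with bicuculline in Control-shRNA (horizontal axis) and Dnmt3a1-shRNA2 cultures (vertical axis) of all tested genes (grey), with the 4 genes in colour; the dotted line marks equal change and 82 genes lie outside the axes. Ccdc177 and Parp16 lie on the dotted line at the lower left edge of the cloud, and Map10, at −1.02 and −1.42, lies below the line.

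The 4 genes are not the 4 lowest values of the series. Among 13887 tested genes averaging 1 CPM or more over the Control-shRNA libraries, Ccdc177 had the second lowest log2 fold change (rank 2) and Parp16 followed at rank 5. Tmem121b was at rank 48 and Map10 at rank 319. Among 13852 such genes in the Dnmt3a1-shRNA2 cultures, the ranks were 5, 7, 30 and 92 in the same order of genes. The other 8 of the 10 lowest genes in Control-shRNA were Gdf1, Gm14440, Chst12, Tfap4, Rasl10a, Zbed5, Osr1 and Stat2. They were picked for the same response in Control-shRNA, so nothing is read from the count that follows. Of these 8, 6 were called lower in the Dnmt3a1-shRNA2 cultures as well, against 13.2% of all tested genes. Chst12, a chondroitin sulfotransferase, fell there by 2.42 on the log2 scale (SE 0.15, edgeR adjusted p = 5.32e-10) and Rasl10a, a small GTPase of the Ras superfamily, by 2.30 (SE 0.21, edgeR adjusted p = 1.13e-07). Gdf1, at −6.90 in Control-shRNA, had a standard error of 2.11 and was not called in Dnmt3a1-shRNA2 (−2.40, edgeR adjusted p = 0.138). Gm14440 was called in neither.

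Levels of different genes can be compared only per transcript length, as TPM (transcript abundance scaled to the same total in every library). In the Control-shRNA baseline libraries Tmem121b was highest, at 28.7 ± 1.45 TPM (SD, n = 4), followed by Ccdc177 at 7.73 ± 0.669 TPM. Map10, at 3.99 ± 0.376 TPM, and Parp16, at 3.46 ± 0.343 TPM, had overlapping ranges. With bicuculline the order changed below Tmem121b (8.31 ± 0.353 TPM, SD, n = 4). Map10, at 1.70 ± 0.131 TPM, came before Ccdc177, at 1.31 ± 0.240 TPM, with overlapping ranges, and Parp16 was lowest at 0.663 ± 0.103 TPM. With Dnmt3a1-shRNA2 the baseline order was Tmem121b at 29.8 ± 2.76, Ccdc177 at 5.02 ± 0.431, Map10 at 3.30 ± 0.265 and Parp16 at 2.42 ± 0.364 TPM (SD, n = 4), with no overlap between neighbours. With bicuculline these became 7.90 ± 0.958 TPM for Tmem121b, 1.08 ± 0.230 TPM for Map10, 0.844 ± 0.172 TPM for Ccdc177 and 0.478 ± 0.175 TPM for Parp16. There the ranges of Map10 and Ccdc177 overlapped, as did those of Ccdc177 and Parp16.

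The second question was whether the 4 genes differed between knockdown and control cultures. Averaged over both conditions, Ccdc177 was lower with Dnmt3a1-shRNA2, with a log2 fold difference of −0.52 (SE 0.10, edgeR adjusted p = 6.06e-04). Map10 was lower by a smaller amount, −0.35 (SE 0.09, edgeR adjusted p = 0.00830), as was Parp16, at −0.40 (SE 0.14, edgeR adjusted p = 0.0364). Tmem121b had a difference of 0.10 (SE 0.05, edgeR adjusted p = 0.197), with a 95% interval from −0.02 to 0.21. By the adjusted p alone 3 of the 4 genes were lower, against 16.3% of all tested genes. With the fold threshold 1 of the 4, Ccdc177, was called lower, against 5.0%. That call lies at the threshold: leaving out Control-shRNA baseline replicate 1, Control-shRNA bicuculline replicate 2 or 3, Dnmt3a1-shRNA2 baseline replicate 2 or Dnmt3a1-shRNA2 bicuculline replicate 1 moved Ccdc177 to between −0.50 and −0.47, and log2(TPM + 1) moved it to −0.43, each short of the fold threshold with an adjusted p still under 0.05. The value of Parp16 was close to the threshold and passed it in 12 of 24 alternative fits in edgeR, DESeq2 or limma, with adjusted p from 0.0117 to 0.0906. Tmem121b turned to −0.01 when TPM values were used, and was at 0.02 with scaling by library size only.

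Within each condition the differences share libraries with the responses for which the genes were chosen, and are given without a test. For Ccdc177 the difference was −0.51 in baseline (95% interval −0.76 to −0.25) and −0.53 with bicuculline (−0.84 to −0.21). The knockdown and control libraries did not overlap in baseline, and with bicuculline their ranges overlapped at 3.31 to 3.59 CPM. For Parp16 the difference was −0.40 in baseline (95% interval −0.74 to −0.06) and −0.39 with bicuculline (−0.86 to 0.08). The groups of Parp16 overlapped in both conditions, and its value with bicuculline was −0.21 without Dnmt3a1-shRNA2 bicuculline replicate 1 and −0.18 on the log2(TPM + 1) scale. For Map10 the difference was −0.16 in baseline (95% interval −0.42 to 0.11) and −0.55 with bicuculline (−0.85 to −0.25). Every Map10 value with bicuculline was lower in the knockdown cultures, 1.63 to 2.46 against 2.80 to 3.61 CPM, while the baseline values overlapped. The share of all tested genes whose knockdown and control libraries do not overlap was not counted. Nothing is therefore read from the separation in Map10 or Ccdc177. For Tmem121b the difference was 0.17 in baseline (95% interval 0.01 to 0.32) and 0.02 with bicuculline (−0.14 to 0.19).

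The bicuculline response itself was also set side by side between the kinds of culture, again as a description of genes chosen for that response. The response with Dnmt3a1-shRNA2 minus that with Control-shRNA was −0.02 on the log2 scale for Ccdc177 (95% interval −0.42 to 0.38), 0.01 for Parp16 (−0.68 to 0.70) and −0.14 for Tmem121b (−0.37 to 0.08). For Map10 it was −0.39 (95% interval −0.79 to 0.00465). Blocking on replicate number put Map10 at −0.40 (−0.74 to −0.06). On the log2(TPM + 1) scale the Map10 value was −0.17, and leaving out each library gave −0.46 to −0.28. Map10 was chosen for its response, so nothing is read from an interval that just includes or just misses 0. The widest interval is that of Parp16, the gene with the fewest counts.

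**Figure D3:**
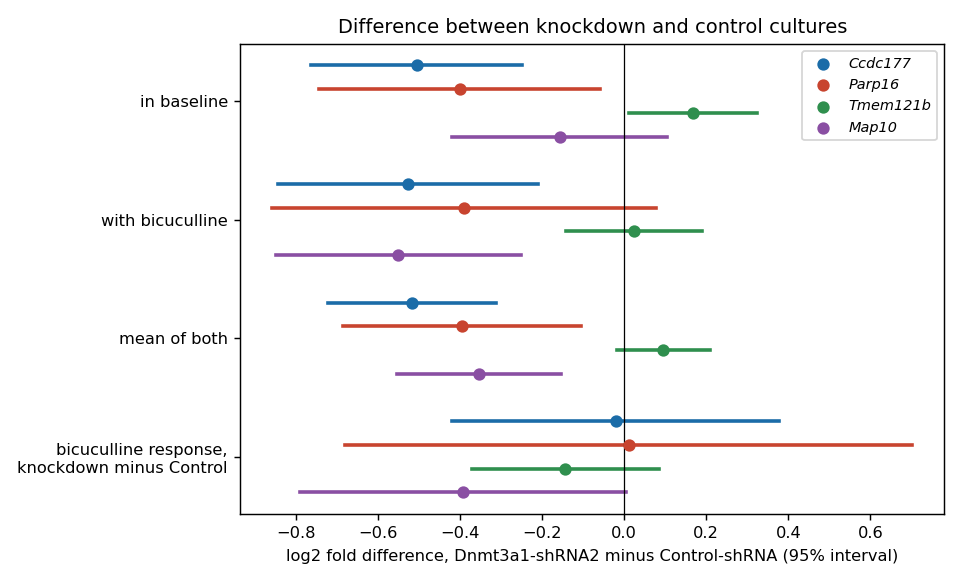
Log2 fold difference between Dnmt3a1-shRNA2 and Control-shRNA cultures (horizontal axis) of the 4 genes in baseline, with bicuculline and over both conditions, and the difference of the bicuculline responses. Points are edgeR estimates and lines 95% intervals. Over both conditions the intervals of Ccdc177, Parp16 and Map10 lie below 0, and the interval of Tmem121b, −0.02 to 0.21, includes 0.

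Relatives and partners of the 4 genes were examined by gene lists, read against the shares of all tested genes called lower (11.1% and 13.2%) and higher (10.8% and 12.6%) in the 2 kinds of culture. The list drawn from the PARP family of ADP-ribosyltransferases holds 15 genes, all of which were tested. Of the 14 besides Parp16, 1 was called lower and 3 higher in Control-shRNA, and 1 lower and 4 higher in Dnmt3a1-shRNA2. Their median log2 fold changes were 0.12 and 0.22, against 0.01 and −0.01 over all tested genes. Over all 15 genes the medians were 0.11 and 0.19, and −0.05 and 0.04 with scaling by library size only, under which Parp11 (−0.60) joined the lower calls in Dnmt3a1-shRNA2. Parp2, a nuclear enzyme of DNA repair, fell by 0.55 in Control-shRNA (SE 0.12, edgeR adjusted p = 0.00129) and by 0.82 in Dnmt3a1-shRNA2 (SE 0.12, edgeR adjusted p = 3.07e-05). Tiparp, which like Parp16 adds single ADP-ribose units, rose by 3.30 (SE 0.14, edgeR adjusted p = 9.60e-12) and 3.50 (SE 0.14, edgeR adjusted p = 4.25e-12). Parp8, another such enzyme, and Tnks, a poly-ADP-ribosyltransferase, rose in both kinds of culture by between 0.85 and 1.08. Parp14 had −0.08 in Control-shRNA (edgeR adjusted p = 0.835) and rose by 1.01 in Dnmt3a1-shRNA2 (edgeR adjusted p = 0.00209) at group means between 0.121 and 0.18 TPM, and this difference was not tested.

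The ER stress list showed the opposite direction to Parp16. Of 10 sensors and targets, 0 were called lower and 9 higher in both kinds of culture, against 10.8% and 12.6% of all tested genes called higher, with median log2 fold changes of 0.75 and 0.90. Scaled by library size only, 8 and 9 were called higher, Ddit3 being lost in Control-shRNA (edgeR adjusted p = 0.0564). Eif2ak3, which encodes PERK, rose by 1.40 in Control-shRNA (SE 0.08, edgeR adjusted p = 4.69e-10) and 1.80 in Dnmt3a1-shRNA2 (SE 0.08, edgeR adjusted p = 1.75e-11). Ern1, which encodes IRE1, rose by 0.78 (SE 0.09, edgeR adjusted p = 2.75e-06) and 0.87 (SE 0.09, edgeR adjusted p = 6.92e-07). The chaperone gene Hspa5 rose by 1.18 and 1.35, and Hsp90b1, the gene not called, had 0.24 and 0.32. In TPM, Eif2ak3 went from 14.0 to 33.1 and Parp16 from 3.46 to 0.663 in the Control-shRNA cultures. Of 7 genes that remove ADP-ribose, 5 were tested and 0 were called with bicuculline in either kind of culture, with log2 fold changes between −0.30 and 0.32. Over both conditions 1 of the 5, Oard1, was called lower with Dnmt3a1-shRNA2 (−0.77, SE 0.12, edgeR adjusted p = 7.97e-05), against 5.0% of all tested genes.

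Of the 23 microtubule-associated proteins listed, 22 were tested, Map10 included. Of the other 21, 0 were called lower and 1 higher in both kinds of culture. Among all tested genes 11.1% and 13.2% were called lower, and 10.8% and 12.6% higher. The median log2 fold changes of the 21 genes were 0.12 and 0.15. The gene called higher was Stmn4, a stathmin that binds tubulin, which rose by 1.02 (SE 0.10, edgeR adjusted p = 2.87e-07) and 1.05 (SE 0.10, edgeR adjusted p = 1.47e-07). Over all 22 genes the medians were 0.10 and 0.12, and −0.06 and −0.03 with scaling by library size only. Under that scaling Map6d1 (−0.58 and −0.64) joined the lower calls in both kinds of culture and Dcx (−0.54) in Control-shRNA, and with DESeq2 size factors Dclk1 (0.51) joined the higher calls in Control-shRNA. The neuronal genes Map2, Mapt and Map1b had values between −0.05 and 0.27 and were not called. In TPM, Map10 was far below these genes, at 3.99 against 727 for Map2 in Control-shRNA baseline. Over both conditions Mapre2 (−0.66, adjusted p = 5.25e-10) and Map6d1 (−0.56, adjusted p = 5.44e-05) were called lower with Dnmt3a1-shRNA2, and Dcx (0.60, adjusted p = 1.13e-05) and Stmn1 (0.50, adjusted p = 4.34e-06, all edgeR) higher. In this contrast 861 of all 17222 tested genes were called lower and 429 higher. Stmn1 lost its call with scaling by library size only (0.42).

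Tmem121b has 1 close relative, Tmem121, which fell too. The decrease of Tmem121 was 0.82 in Control-shRNA (SE 0.15, edgeR adjusted p = 2.40e-04) and 0.92 in Dnmt3a1-shRNA2 (SE 0.15, edgeR adjusted p = 7.32e-05). At baseline the 2 genes were at 28.7 (Tmem121b) and 29.1 TPM (Tmem121) in Control-shRNA, and with bicuculline at 8.31 and 14.4 TPM. Of the 112 other tested genes named Ccdc and a number, which share a coiled-coil prediction and no common function, 29 were called lower and 4 higher in Control-shRNA, and 35 and 4 in Dnmt3a1-shRNA2. Of all tested genes, 11.1% were called lower and 10.8% higher in Control-shRNA, and 13.2% and 12.6% in Dnmt3a1-shRNA2. The median log2 fold changes of the 112 genes were −0.19 and −0.16. With scaling by library size only the medians, Ccdc177 included, were −0.35 and −0.31. The lowest of the 112 in Dnmt3a1-shRNA2 was Ccdc112, at −1.91 (SE 0.12, edgeR adjusted p = 5.02e-10).

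**Figure D4:**
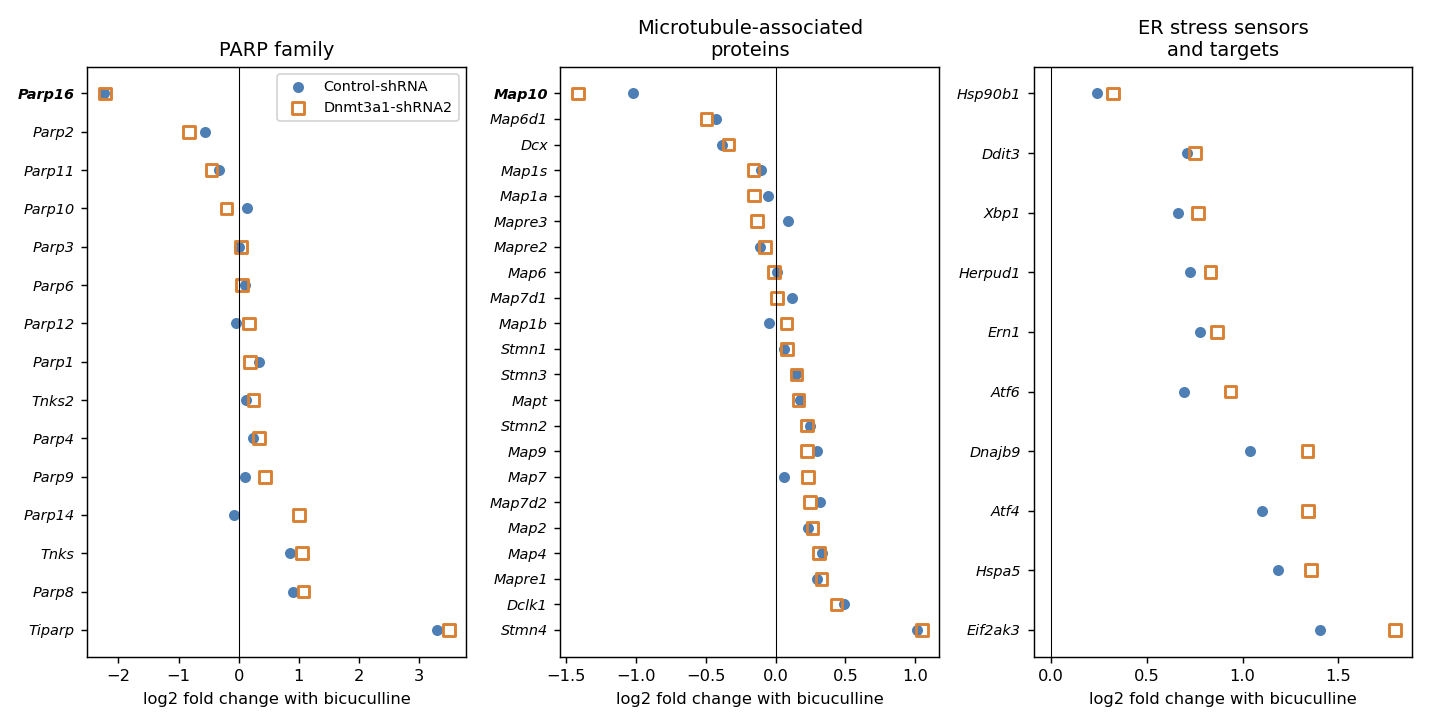
Log2 fold change with bicuculline (horizontal axes) of each tested gene of the PARP family list, the list of microtubule-associated proteins and the ER stress list. Filled circles are Control-shRNA and open squares Dnmt3a1-shRNA2 cultures. Parp16 and Map10 (bold) are the lowest genes of their lists, at −2.22 and −1.42 in Dnmt3a1-shRNA2, and all 10 ER stress genes have values above 0. Parp16 and Map10 were chosen for this decrease, so nothing is read from their place.

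The nearest genes of the 4 members moved in both directions with bicuculline. Over all tested genes 11.1% were called lower and 10.8% higher in Control-shRNA, and 13.2% and 12.6% in Dnmt3a1-shRNA2. Of the 8 nearest tested genes, 1 on each side of each member, Plekhd1 was called lower in both kinds of culture. It lies 29829 bases from Ccdc177 and had −1.10 in Control-shRNA (SE 0.21, edgeR adjusted p = 4.57e-04) and −1.21 in Dnmt3a1-shRNA2 (SE 0.21, edgeR adjusted p = 1.07e-04). Susd6, 29823 bases away on the other side of Ccdc177, was called higher in both (0.79 and 0.62). Sipa1l2, 100010 bases from Map10, was also called higher in both (1.19 and 1.38), while Ntpcr on the other side of Map10 had −0.12 and −0.03. Igdcc3, 9481 bases from Parp16, was called lower in Control-shRNA (−0.84, edgeR adjusted p = 0.00345) and had −0.45 in Dnmt3a1-shRNA2 (edgeR adjusted p = 0.0905), a difference that was not tested. Clpx, on the other side of Parp16, had −0.20 and −0.17. Il17ra, 1380 bases from Tmem121b, had −0.25 and −0.05 with bicuculline, and Hdhd5 on its other side had −0.15 and −0.17. Over both conditions Il17ra was called lower with Dnmt3a1-shRNA2 (−0.96, SE 0.16, edgeR adjusted p = 2.40e-04), where Tmem121b itself had 0.10. That contrast called 5.0% of all tested genes lower.

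Among 13880 tested genes averaging 1 CPM or more, those whose log2 CPM followed each member most closely over the 16 libraries had Pearson's r between 0.982 and 0.990. The points share the 4 groups, so these values mostly describe the common step between baseline and bicuculline. For Ccdc177 the 3 genes were Zfp827, Keap1 and Zfp282, and for Parp16 they were Recql5, Fbxl20 and Trub1. For Tmem121b they were Pnma2, Mum1 and Oprl1, and for Map10 they were Mief1, Fam171a1 and Rfwd3. Most of these genes fell less than the member they resembled. Zfp827 went from 29.8 to 14.2 CPM in Control-shRNA and Recql5 from 14.0 to 7.14 CPM, while Oprl1, the nociceptin receptor gene, went from 42.6 to 13.8 CPM, close to the fractional loss of Tmem121b.

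Markers of cell types were summed in each library to see what else moved with the condition. With bicuculline 11.1% of all tested genes were called lower and 10.8% higher in Control-shRNA, and 13.2% and 12.6% in Dnmt3a1-shRNA2. Sums of the 4 excitatory markers were at 2351 to 2590 CPM in Control-shRNA baseline and 2276 to 2491 CPM with bicuculline, and at 2092 to 2319 and 1975 to 2305 CPM in Dnmt3a1-shRNA2. Within that list Neurod6 was called lower and Slc17a6 higher in both kinds of culture. The 3 GABAergic markers summed to 1170 to 1489 CPM in Control-shRNA baseline and 1715 to 2168 CPM with bicuculline, and to 890 to 1175 and 1455 to 1911 CPM in Dnmt3a1-shRNA2, with Gad1 and Gad2 called higher with bicuculline in each kind of culture. With scaling by library size only neither was called in Control-shRNA (0.45 and 0.49). The 5 general neuronal markers included 1 that was called lower with bicuculline, Tubb3. Sums of the 4 astrocyte markers overlapped between conditions, at 211 to 377 and 232 to 466 CPM in Control-shRNA and at 284 to 507 and 391 to 570 CPM in Dnmt3a1-shRNA2, and those of the 5 oligodendrocyte lineage markers lay between 94.8 and 216 CPM throughout, with Mog called lower. Of the microglial markers only Csf1r passed the filter, at 1.22 to 3.98 CPM, and Cx3cr1, P2ry12 and the vessel marker Cldn5 were at 0 counts in at least 1 library, while Col1a1 and Pdgfrb, of fibroblasts and vessels, summed to between 7.27 and 21.3 CPM, with Pdgfrb called higher in Control-shRNA, a call lost with scaling by library size only (0.40). The proliferation markers Mki67 and Top2a summed to 0.463 to 1.36 CPM and were not called with bicuculline, except that Mki67 was called lower in Control-shRNA with scaling by library size only (−0.95). Over both conditions Gfap was called higher with Dnmt3a1-shRNA2 (0.59), and Csf1r (−0.70) and Top2a (−0.69) lower. Of all 17222 tested genes 861 were called lower and 429 higher there. With scaling by library size only Gfap was not called (0.52, edgeR adjusted p = 0.0518), and Mbp was called lower (−0.53). Whether changes in cell makeup contribute to the decrease of the 4 genes was not tested.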

How the data were processed

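Bulk RNA sequencing libraries of 16 primary hippocampal cultures were analysed, 4 in each of 4 groups taken from the sample labels. The authors trimmed reads (Trim Galore 0.6.4 in the submitters' processing notes) and quantified them with kallisto on GRCm38.p6. They deposited estimated counts and TPM per gene, both used here. Estimated counts were rounded and tested with edgeR 4.0.16 (quasi-likelihood, TMM scaling, filterByExpr, 1 fit of all groups, 17222 genes, Benjamini-Hochberg adjustment, limma 3.58.1 and DESeq2 1.42.0 as alternatives). Calls required an adjusted p under 0.05 together with an absolute log2 fold change over 0.5. CPM values are TMM-scaled; kallisto assigns reads shared by overlapping genes by estimation.

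The 4 genes, the gene lists and the tests were chosen with earlier results of these data known. A test of their response in Dnmt3a1-shRNA2 had been planned and was dropped, since the choice may have used those libraries. Besides the 4 genes, the text names the 10 tested genes of at least 1 CPM with the lowest response in Control-shRNA, the nearest tested gene on each side, the 3 genes most correlated with each member, the checks of knockdown and stimulation, and members of the lists. On simulated counts of 16944 genes with 200 changed in the Dnmt3a1-shRNA2 response, 91 of 100 were called at a true log2 change of 1 and 97 of 100 at 2, with 3 unchanged genes called. The changed genes averaged over 1 CPM. The simulation covers the test that was dropped and does not show how often a true mean knockdown difference would be called. Depth per library was 28912697 to 29586355 counts. Gene models were from GENCODE M21, and 55144 of 55385 gene IDs matched without version. Alternatives were other tools, scalings, filters, TPM with pseudocounts of 1 and 0.1, a replicate block, fits of only the 2 groups compared, and leaving out each library. Same-numbered libraries correlated in their deviations from group means at 0.142 to 0.221 (Control-shRNA, baseline and bicuculline), 0.204 to 0.355 (baseline, both hairpins), 0.0631 to 0.337 (Dnmt3a1-shRNA2) and 0.0667 to 0.388 (bicuculline), over 0.1 in all 4 pairs of the first 2 comparisons and 3 of 4 of the others. In the same order of comparisons, 6, 7, 5 and 4 of 8 libraries correlated best with the library of their own number. Pairing by number is thus partial in the data, and the labels do not state it. The fit of all groups was therefore kept without the block, which is given as an alternative.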

Additional observations from a re-analysis of the deposited data

Results flagged for a closer look

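Each of the 4 genes was checked in each of the 4 groups for a library far from the other 3 by Dixon's ratio, the gap to the nearest library divided by the range of the group; chance gives about 1 such group in 20, and 2 of 16 were found. Parp16 in Control-shRNA baseline had its lowest library, replicate 3, at 3.16 CPM, with a ratio of 0.835. Tmem121b in Dnmt3a1-shRNA2 baseline had its highest library, replicate 2, at 79.8 CPM, with a ratio of 0.915.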

How the results depend on the processing

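The bicuculline response of the 4 genes in the Dnmt3a1-shRNA2 cultures stayed negative in every alternative that gave a value, with log2 fold changes from −2.53 to −1.71 for Ccdc177, −2.36 to −1.21 for Parp16, −1.91 to −1.68 for Tmem121b and −1.56 to −1.05 for Map10; a filter of at least 10 counts in every library dropped Parp16. Over both conditions the knockdown difference of Parp16 lost significance with DESeq2 (−0.39, adjusted p = 0.0505) and without a filter on low counts (−0.39, edgeR adjusted p = 0.0906). Leaving out each library gave −0.45 to −0.31, past the threshold only without Control-shRNA baseline replicate 3, Control-shRNA bicuculline replicate 1, Dnmt3a1-shRNA2 baseline replicate 2 or 4, or Dnmt3a1-shRNA2 bicuculline replicate 2 or 3. That of Tmem121b changed sign with limma on log2(TPM + 1) and log2(TPM + 0.1), at −0.011 and −0.015; the cause was not tested. By adjusted p alone, without the fold threshold, 7131 genes in Control-shRNA, 7919 in Dnmt3a1-shRNA2 and 5427 for the mean knockdown difference passed, against 3765, 4436 and 1290; with log2(TPM + 1) the last was 793. With scaling by library size only the median of all genes was −0.15, −0.16 and −0.07, and the share of lower among all calls went from 50.8% to 69.0%, 51.1% to 67.2% and 66.7% to 83.8%. With the replicate number as a block (replicate block), 3986, 4612 and 1418 genes were called, Parp16 had −2.22 in Dnmt3a1-shRNA2 and −0.40 for the knockdown difference, and no call of the 4 genes changed; the block moved the interval of the Map10 response difference off 0 (−0.74 to −0.06). With log2(TPM + 1) the Map10 response difference was −0.17, and leaving out each library gave −0.46 to −0.28. Depth limits Parp16 most, with 9 to 26 counts per bicuculline library.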
